A study of Mus musculus with 10 samples.

Results

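Mitochondrial fatty acid uptake and β-oxidation was followed through 33 genes in mouse liver RNA-seq. The genes were chosen by name, from transporters and binding proteins to the last thiolase and the electron carriers, by a rule that uses no measured value. The list was nevertheless made with earlier results of these data known. The deposited tables list 41388 genes, of which 13444 exceeded 1 CPM (a count scaled to the size of its library) in at least 1 liver and were tested, and all 33 members were among the latter. The series holds 10 livers from C57B/6J mice aged 12 wk: 2 WT refed livers, 3 WT fasting livers and 5 NAMPT LKO fasting livers. Both fasting groups went 24 h without food, and by their labels the WT refed mice were fasted for 22 h and then ate for 2 h. The study's text calls the fed group WT Fed, describes it as fed at random and gives a shorter fast, and the feeding contrast is used here as the labels give it. NAMPT LKO mice carry LoxP sites on both copies of Nampt and an Albumin-cre transgene, which acts in hepatocytes, so other liver cells keep the gene. The WT livers came from littermates with the same floxed allele and no cre. There was no refed NAMPT LKO group, so a difference between genotypes in the response to fasting could not be tested. The labels do not say that the mice came from separate cages or litters, so p-values measure the spread between these livers alone.

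In fasted animals, fatty acids released from adipose tissue enter the hepatocyte with the help of transporters such as CD36 and the fatty acid transport proteins, travel bound to FABP1 and are joined to coenzyme A by acyl-CoA synthetases. CPT1A on the outer mitochondrial membrane and CPT2 on the inner one pass long-chain acyl groups through carnitine into the matrix, where repeated rounds of dehydrogenation, hydration, dehydrogenation and thiolysis release acetyl-CoA. The dehydrogenases hand their electrons to electron transfer flavoprotein and from there to the respiratory chain, and the hydroxyacyl-CoA step reduces NAD+, the cofactor that NAMPT helps to make. Many of these genes are known targets of the nuclear receptor PPARα.

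Total counts per liver ran from 30603080 to 43434139, and the lowest count of any member in any liver was 158, for Acad12. The deletion was visible in every NAMPT LKO liver: Nampt was 78.0 and 67.8 CPM in WT refed livers, 63.0, 73.4 and 141 CPM in WT fasting livers and 11.8 to 15.3 CPM in NAMPT LKO livers. Sums of the 8 hepatocyte markers were 79462 to 84596 CPM in WT refed livers and 81436 to 108145 CPM in WT fasting livers. In NAMPT LKO livers they were 69705 to 117206 CPM, highest in mouse 5. The defining adipocyte genes Adipoq, Lep, Plin1, Cidea and Retn and the muscle genes Acta1, Myh4, Ckm and Tnnt3 stayed under 1 CPM in every liver, and the full lists summed to 8.99 to 16.3 CPM for 6 adipocyte markers and 0.558 to 1.14 CPM for 5 muscle markers. Over WT refed, WT fasting and NAMPT LKO livers in turn, endothelial markers summed to 202 to 206, 224 to 240.3 and 203 to 260 CPM, and stellate cell markers to 184 to 186, 181 to 235 and 224 to 299 CPM. Blood cell markers ran from 339 to 1410 CPM and overlapped among the groups. Cholangiocyte markers summed to 34.3 to 54.6 CPM in NAMPT LKO livers and to 15.2 to 22.5 CPM in the others. The part of these cell types in the results was not tested. Counts mapped to the mitochondrial genome made up 10.4% to 12.9% of a library except in WT fasting mouse 3 (7.42%) and NAMPT LKO mouse 5 (21.1%). WT fasting mouse 3 also had the highest sum of Kupffer cell and macrophage markers (480.1 CPM, against 186 to 231 CPM in WT refed livers and 168 to 371 CPM in NAMPT LKO livers). Values without these libraries are given beside several of the results.

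The pathway was expressed throughout, over a wide range of levels (the plot of level per exonic length). Here levels are compared between genes as normalised RPKM, the normalised CPM per kilobase of exon. Fabp1, the abundant liver fatty acid-binding protein, had a median of 6922 RPKM over the 10 livers. It was followed by Acaa2, the mitochondrial 3-ketoacyl-CoA thiolase, with 419 RPKM and by Dbi, the acyl-CoA-binding protein, with 269.5 RPKM. At the other end stood Acsl3, a long-chain acyl-CoA synthetase, with 2.99 RPKM and Acad12, a member of the acyl-CoA dehydrogenase family, with 1.04 RPKM. Neighbours in this order could overlap in their ranges over livers, as did Dbi (228 to 379.7 RPKM) and Etfb, the β subunit of electron transfer flavoprotein (229 to 296 RPKM). Normalised CPM of the 33 genes summed to 10880 to 16752 per liver.

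**Figure D1:**
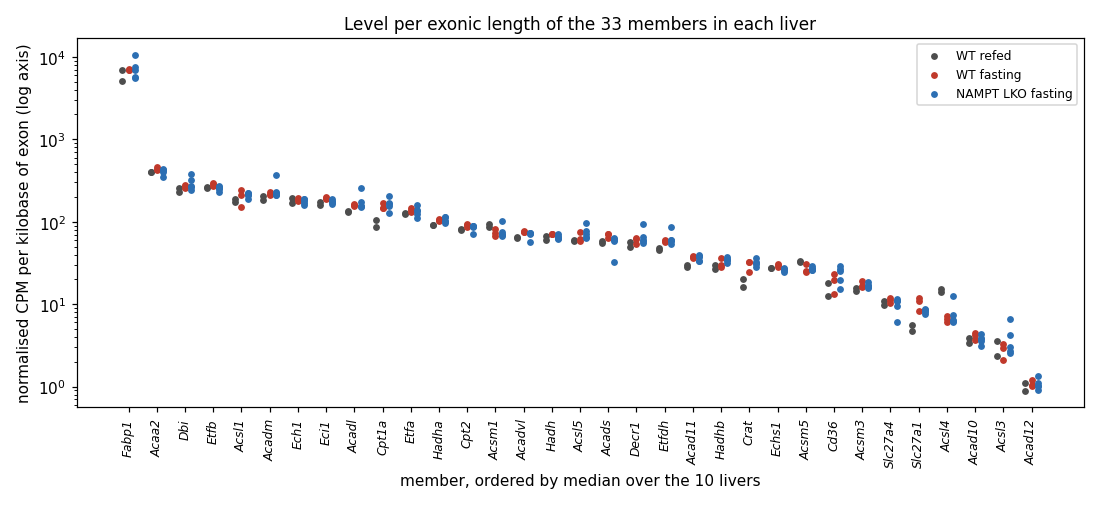
Normalised CPM per kilobase of exon (log axis) of the 33 members in each of the 10 livers, ordered by their median; each point is 1 liver, coloured by group. Fabp1 lies at a median of 6922 and Acad12 at 1.04, with the other members between 2.99 and 419.

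The genes of highest level did not separate the groups cleanly. Fabp1 (ENSMUSG00000054422; GRCm38 chr6:71199827-71205023, plus strand) was 3826 and 2799 CPM in WT refed livers, 3830.1, 3788 and 3891 CPM in WT fasting livers and 4204, 3853, 3056, 3186 and 5877 CPM in NAMPT LKO fasting livers. The highest value was that of NAMPT LKO mouse 5, and the value of WT refed mouse 1 lay within the range of the WT fasting livers. Acaa2 was 609 and 603 CPM in WT refed livers, 656, 695 and 649 CPM in WT fasting livers and 658, 635, 534, 634 and 603 CPM in NAMPT LKO livers. Dbi (ENSMUSG00000026385; chr1:120113280-120121078, minus strand) was 361 and 324 CPM, 388, 399 and 362 CPM, and 456, 389, 341, 379 and 540.0 CPM in the same order of groups. Acaa2 and Dbi were higher in each WT fasting liver than in either WT refed liver, by 0.14 ± 0.12 (SE) and 0.16 ± 0.18 on the log2 scale, and neither passed the test (adjusted p = 0.56 and 0.65).

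The first comparison asked how the pathway differed between fasting and refed WT livers. By edgeR's quasi-likelihood test with Benjamini-Hochberg adjustment over all genes tested, and a threshold of 0.05 on the adjusted p, 3 of 33 members changed, where 7.04% of all genes tested did (946 of 13444). Slc27a1 and Crat rose (2 members; 2.68% of all genes rose) and Acsl4 fell (1 member; 4.36% of all genes fell). The direction was shared by more members than passed the test: 29 of 33 had a log2 fold change above 0, with a median of 0.16, against 53.6% of all genes tested and a median of 0.037. In 19 members every WT fasting liver was above both WT refed livers and in 3 every one was below, and the other 11 overlapped. Among all genes tested, 24.5% separated upwards and 25.1% downwards in the same way. The plot of fold changes shows most members slightly to the right of 0, with Slc27a1, Crat and Cpt1a further out and Acsl4 on the other side.

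The number of members called moved with the method and with single libraries. It was 5 with DESeq2, 11 with limma's voomWithQualityWeights and 3 with the edgeR exact test, which called 1646, 3331 and 1198 of all 13444 genes. Leaving out WT refed mouse 2 left 0 members (107 of all genes), and leaving out WT refed mouse 1, WT fasting mouse 1 or WT fasting mouse 2 left 1 member each (192, 538 and 466 of all genes). Leaving out NAMPT LKO mouse 5, which belongs to neither group and enters through the shared estimate of the spread and the normalisation, gave 6 members (2235 of all genes). In these fits the member counts mostly moved with the calls over all genes, and in others they did not. Scaling by library size alone gave 2 members and 979 of all genes, and removing each library's trend with GC content gave 3 and 1481. Leaving out NAMPT LKO mouse 4 gave 4 and 872.

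**Figure D2:**
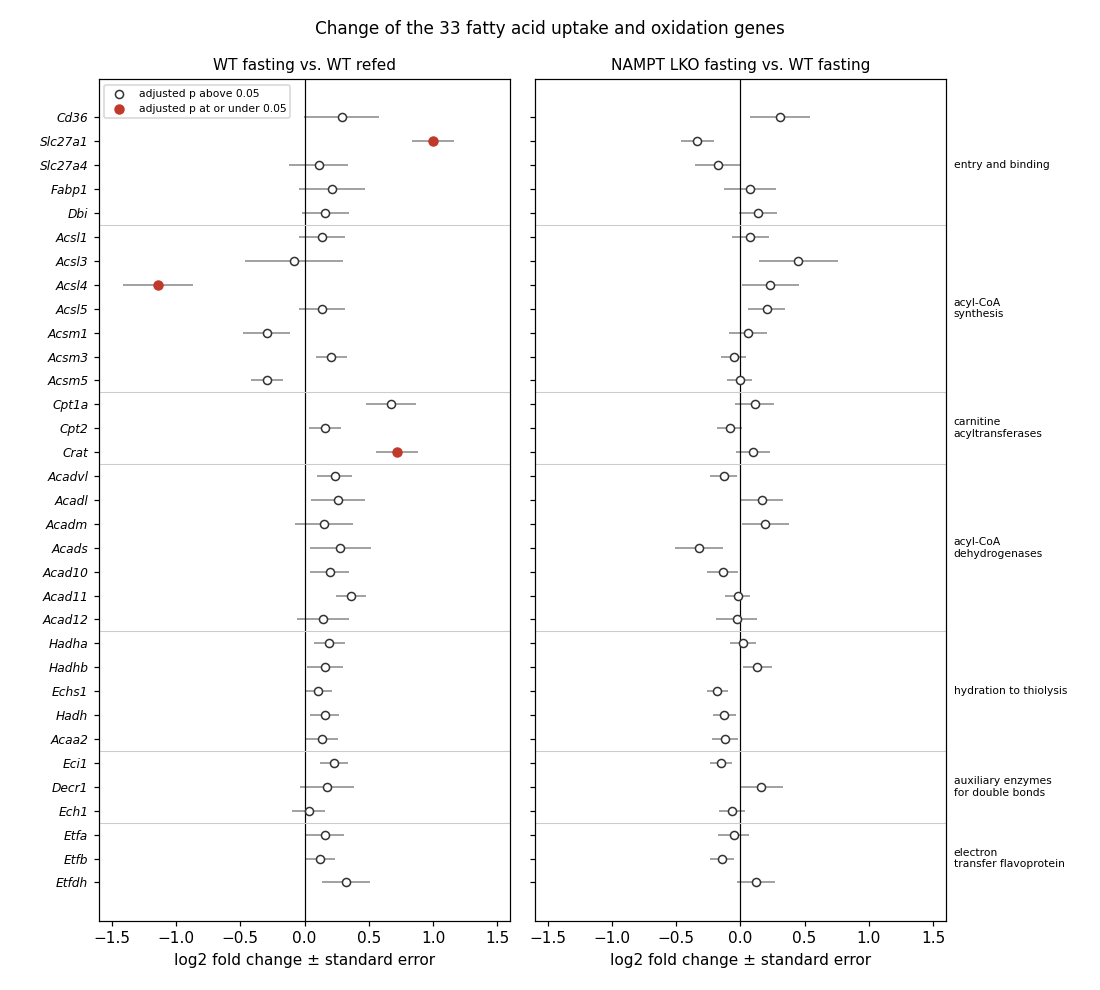
Log2 fold change (point) and its standard error (line) for each of the 33 members, grouped by role, in WT fasting against WT refed livers (left) and NAMPT LKO fasting against WT fasting livers (right); filled points have an adjusted p at or under 0.05. On the left 29 of 33 points lie above 0 and 3 are filled, and on the right the points lie between -0.33 and 0.45 and none is filled.

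Among the genes of entry and binding, Slc27a1 was the member with the lowest p. It encodes fatty acid transport protein 1, a membrane protein with acyl-CoA synthetase activity (ENSMUSG00000031808; chr8:71568927-71586708, plus strand). Slc27a1 was 15.8 and 13.3 CPM in WT refed livers and 33.7, 30.4 and 23.4 CPM in WT fasting livers, so that the lowest fasting liver was well above the highest refed liver. The log2 fold change was 1.00 ± 0.16 (SE; adjusted p = 0.0057). The call was lost only without WT refed mouse 2, among the 10 fits that each left out 1 library, and the log2 fold change ran from 0.88 to 1.13 in those fits. The 4 other members of this role had log2 fold changes of 0.11 to 0.29 and none passed the test. They were Cd36, Fabp1, Dbi and Slc27a4, the last encoding fatty acid transport protein 4, and 3 of these 4 overlapped between the groups, Dbi being the exception.

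The acyl-CoA synthetases were the role in which values below 0 predominated, with 3 of 7 members above 0 and a median of -0.085. Acsl4, a long-chain synthetase that prefers arachidonic acid, fell (ENSMUSG00000031278; chrX:142317993-142390535, minus strand). It was 75.4 and 82.1 CPM in WT refed livers and 39.2, 35.5 and 32.6 CPM in WT fasting livers, for a log2 fold change of -1.14 ± 0.27 (adjusted p = 0.030). The groups were far apart, and the call was lost when any of the 5 WT libraries was left out, with log2 fold changes of -1.22 to -1.08. The medium-chain synthetase genes Acsm1 and Acsm5 were also lower in every WT fasting liver than in either WT refed liver, with log2 fold changes of -0.30 ± 0.18 and -0.29 ± 0.12, and did not pass the test (adjusted p = 0.38 and 0.19). Acsl1, the main long-chain synthetase of liver, was 1805 and 1659 CPM in WT refed livers and 2008, 2284 and 1418 CPM in WT fasting livers. WT fasting mouse 3 was the lowest of all 5, and without it the log2 fold change of Acsl1 was 0.30 (adjusted p = 0.296) in place of 0.14.

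All 3 carnitine acyltransferases were higher in each WT fasting liver than in either WT refed liver, where 24.5% of all genes tested were. Crat, carnitine acetyltransferase, which moves acetyl groups between coenzyme A and carnitine, rose (ENSMUSG00000026853; chr2:30400471-30415813, minus strand). It was 108 and 87.5 CPM in WT refed livers and 174, 177 and 131 CPM in WT fasting livers, for a log2 fold change of 0.72 ± 0.17 (adjusted p = 0.026). WT fasting mouse 3 was the lowest of its group, and without it the log2 fold change was 0.84 (adjusted p = 0.015). The call was lost without either WT refed mouse and without WT fasting mouse 1 or 2. Cpt1a, the liver carnitine palmitoyltransferase that controls entry of long-chain acyl groups and is inhibited by malonyl-CoA, did not pass the threshold in this comparison (ENSMUSG00000024900; chr19:3323301-3385732, plus strand). It was 456 and 368 CPM in WT refed livers and 719.6, 624 and 626 CPM in WT fasting livers, with no overlap and a log2 fold change of 0.67 ± 0.19 (adjusted p = 0.062). Its adjusted p was 0.011 with DESeq2 and 0.013 without NAMPT LKO mouse 5. Cpt2, which re-forms acyl-CoA in the matrix, was 191 and 195 CPM against 218, 222 and 207 CPM, a log2 fold change of 0.16 ± 0.12 (adjusted p = 0.48).

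**Figure D3:**
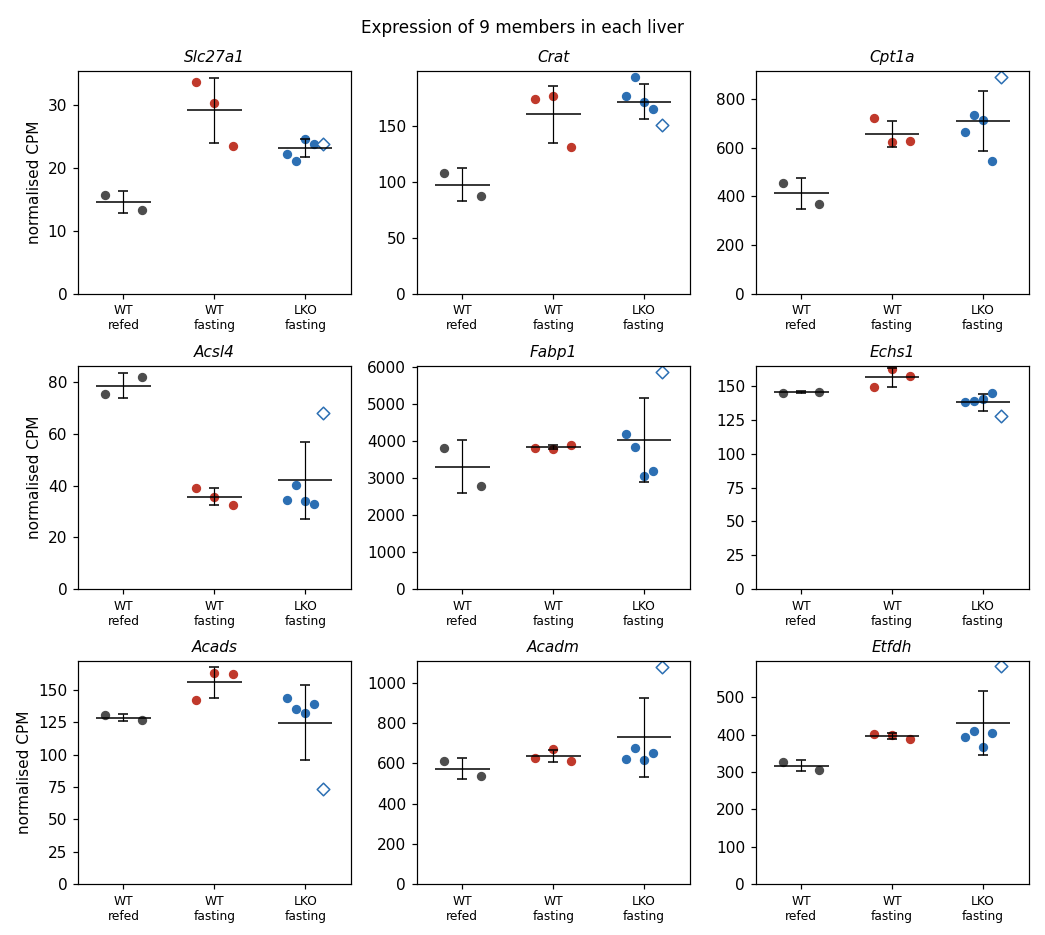
Normalised CPM of 9 members in each liver (points), with the mean (long bar) and SD (whisker) of the 2 WT refed, 3 WT fasting and 5 NAMPT LKO fasting livers; the open diamond is NAMPT LKO mouse 5. Slc27a1, Crat and Cpt1a are higher and Acsl4 is lower in every WT fasting liver than in either WT refed liver, and the diamond stands apart for Acsl4, Acads, Acadm and Etfdh.

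The enzymes of the β-oxidation cycle itself had smaller fold changes, and none of them passed the test. At an unadjusted p under 0.05 there was 1 among them, Acad11, where 3002 of all 13444 genes tested reached that value. All 7 acyl-CoA dehydrogenases, which catalyse the first step for chains of different length, had log2 fold changes of 0.14 to 0.36. Of these 7, 5 were higher without overlap between the groups. Among all genes tested 24.5% were, and this share belongs beside the other counts without overlap below. Acad11, named here after its values were seen, was 276 and 266 CPM in WT refed livers and 347, 356 and 340.0 CPM in WT fasting livers, for a log2 fold change of 0.36 ± 0.12 (adjusted p = 0.10). Of the 5 genes from hydration to thiolysis, Hadha and Hadhb, the subunits of the trifunctional protein, Echs1, Hadh and Acaa2, the values ran from 0.11 to 0.19, and 4 did not overlap. The 3 auxiliary enzymes for double bonds had 0.03 (Ech1), 0.18 (Decr1) and 0.23 (Eci1). The 3 electron carriers Etfa, Etfb and Etfdh had 0.16, 0.12 and 0.32, and all 3 were higher in each WT fasting liver than in either WT refed liver. With voomWithQualityWeights, Acad11, Acadvl, Eci1 and Etfdh were called higher as well, and with DESeq2 Acad11 was. As these are bulk livers, fewer cells of a type and less RNA per cell cannot be told apart.

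PPARα binds, with RXR, to a direct repeat of AGGTCA spaced by 1 base, so the region upstream of each gene was searched for the 13-base motif AGGTCANAGGTCA on both strands. RefSeq windows on GRCm38.p6, from 250 bases before to 50 after a start, were searched for 30 of 33 members (34 windows; Crat, Acaa2 and Decr1 were not searched), and 32851 such windows of all genes served for comparison. An exact match was found in 0 of 34 windows and in 0.0396% of all windows. With up to 1 mismatch, 1 window (2.94%) held the motif, that of Fabp1, against 0.554% of all windows. With up to 2 mismatches, 4 windows (11.8%) did, against 3.86%, and with up to 3 mismatches 12 windows (35.3%) did, against 24.6%. The 4 genes with at most 2 mismatches were Fabp1, Cd36, Echs1 and Etfa, and the match began 67, 63, 83 and 77 bases before the RefSeq start. None of these 4 passed the test in WT fasting against WT refed livers (log2 fold changes of 0.21, 0.29, 0.11 and 0.16). The windows of Slc27a1 (3 windows), Acsl4 and Cpt1a had at least 4, 3 and 4 mismatches at any position, which says only that these letters are not in these windows. Of the 3 Slc27a1 windows, only that with at least 5 mismatches is printed below. To let both kinds be read side by side, the 250 bases upstream of the start are given 5′ to 3′ on the gene's strand, with the matched bases in capitals in the first 4 and no capitals in the other 3.
Fabp1, chr6:71199629-71199878, plus strand: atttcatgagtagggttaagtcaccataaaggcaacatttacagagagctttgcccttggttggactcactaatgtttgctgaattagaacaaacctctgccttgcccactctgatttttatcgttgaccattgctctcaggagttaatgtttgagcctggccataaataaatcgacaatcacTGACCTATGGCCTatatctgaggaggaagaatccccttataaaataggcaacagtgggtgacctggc
Cd36, chr5:17835897-17836146, minus strand: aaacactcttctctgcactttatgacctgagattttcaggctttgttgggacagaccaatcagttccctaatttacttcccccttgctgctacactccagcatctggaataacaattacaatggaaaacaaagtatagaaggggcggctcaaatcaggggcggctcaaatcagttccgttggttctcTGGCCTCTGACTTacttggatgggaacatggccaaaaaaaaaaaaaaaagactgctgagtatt
Echs1, chr7:140116422-140116671, minus strand: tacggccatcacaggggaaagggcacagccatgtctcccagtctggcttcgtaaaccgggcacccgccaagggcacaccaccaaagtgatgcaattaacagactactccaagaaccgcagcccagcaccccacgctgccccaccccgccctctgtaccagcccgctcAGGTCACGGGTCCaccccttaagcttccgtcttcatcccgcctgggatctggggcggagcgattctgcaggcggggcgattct
Etfa, chr9:55512244-55512493, minus strand: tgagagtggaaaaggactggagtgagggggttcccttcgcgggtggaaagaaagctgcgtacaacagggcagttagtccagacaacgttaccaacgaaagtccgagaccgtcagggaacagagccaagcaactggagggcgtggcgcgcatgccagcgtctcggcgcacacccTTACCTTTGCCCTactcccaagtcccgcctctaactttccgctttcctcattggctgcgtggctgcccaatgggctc
Slc27a1, chr8:71568621-71568870, plus strand: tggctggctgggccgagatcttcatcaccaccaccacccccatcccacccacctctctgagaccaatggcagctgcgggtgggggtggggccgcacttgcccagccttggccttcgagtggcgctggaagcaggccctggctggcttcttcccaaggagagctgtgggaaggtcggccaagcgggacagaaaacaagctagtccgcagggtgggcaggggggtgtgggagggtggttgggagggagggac
Acsl4, chrX:142390536-142390785, minus strand: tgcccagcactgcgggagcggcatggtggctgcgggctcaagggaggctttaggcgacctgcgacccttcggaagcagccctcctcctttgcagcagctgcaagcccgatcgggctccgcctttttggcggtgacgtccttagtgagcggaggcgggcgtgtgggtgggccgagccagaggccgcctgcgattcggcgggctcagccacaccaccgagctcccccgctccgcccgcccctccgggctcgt
Cpt1a, chr19:3323051-3323300, plus strand: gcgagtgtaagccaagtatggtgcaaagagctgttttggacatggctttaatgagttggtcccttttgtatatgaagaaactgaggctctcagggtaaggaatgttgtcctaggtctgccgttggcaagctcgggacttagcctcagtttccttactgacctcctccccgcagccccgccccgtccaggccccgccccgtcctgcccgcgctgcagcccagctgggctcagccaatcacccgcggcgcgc
In Fabp1, Cd36 and Etfa the match lies on the opposite strand, where it reads AGGCCATAGGTCA, AAGTCAGAGGCCA and AGGGCAAAGGTAA, and in Echs1 it reads AGGTCACGGGTCC on the strand shown.

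The second comparison asked what loss of NAMPT in hepatocytes changed in the fasting liver. None of the 33 members passed edgeR's quasi-likelihood test, where 0.00744% of all genes tested did, which is Nampt alone. At an unadjusted p under 0.05 there was 1 member, Slc27a1, where 6.03% of all genes tested reached that value. DESeq2, voomWithQualityWeights and the edgeR exact test also called 0 members, where they called 24, 1 and 24 of all 13444 genes. With so few calls over all genes, a count of 0 says little about the members in particular. Log2 fold changes ran from -0.33 to 0.45, 16 of 33 were above 0, and the median was -0.0056, against 0.00025 over all genes tested. The median standard error of a member was 0.13 on the log2 scale, and a p above the threshold does not show that the genotypes were alike. This comparison and the first share the WT fasting livers, so the values of a gene in both are not independent.

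The 3 members with the lowest p were Slc27a1, Echs1 and Acads, and all 3 were lower in NAMPT LKO livers on average. Slc27a1 was 22.3, 21.1, 24.7, 23.8 and 23.7 CPM in NAMPT LKO livers, set beside 33.7, 30.4 and 23.4 CPM in WT fasting livers. The NAMPT LKO livers were close together and WT fasting mouse 3 fell within their range. The log2 fold change was -0.33 ± 0.13 (adjusted p = 0.80), and -0.47 without WT fasting mouse 3 (adjusted p = 0.93). Echs1, the short-chain enoyl-CoA hydratase of the second step (ENSMUSG00000025465; chr7:140105710-140116476, minus strand), was 149.5, 163 and 157 CPM in WT fasting livers and 138, 139, 141, 145 and 128 CPM in NAMPT LKO livers. The groups did not overlap, the WT refed livers (145 and 146 CPM) lay between them, and the log2 fold change was -0.18 ± 0.08 (adjusted p = 0.83).

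Acads, the short-chain acyl-CoA dehydrogenase (ENSMUSG00000029545; chr5:115110299-115119346, minus strand), was 131 and 127 CPM in WT refed livers, 142, 163 and 162 CPM in WT fasting livers and 144, 135, 132, 139 and 73.4 CPM in NAMPT LKO livers. The lowest of the 10 values was that of NAMPT LKO mouse 5. The log2 fold change was -0.32 ± 0.19 (adjusted p = 0.84) with that mouse and -0.18 without it (adjusted p = 0.60).

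By role, the differences between the genotypes stayed small on either side of 0. Median log2 fold changes were 0.073 for entry and binding, 0.078 for acyl-CoA synthesis, 0.096 for the carnitine acyltransferases, -0.029 for the acyl-CoA dehydrogenases, -0.12 for hydration to thiolysis, -0.065 for the auxiliary enzymes and -0.051 for the electron carriers. Cpt1a was 666, 733, 712, 546 and 889 CPM and Crat 177, 194, 172, 165 and 151 CPM in NAMPT LKO livers, with log2 fold changes of 0.11 ± 0.15 and 0.10 ± 0.13 against WT fasting livers. For Cpt1a the value was 0.017 without NAMPT LKO mouse 5, and for Crat it was -0.031 without WT fasting mouse 3. In 4 members, Echs1, Hadh, Acadvl and Eci1, every NAMPT LKO liver was below every WT fasting liver, and in 0 members was every one above. Over all genes tested, 2.12% separated downwards and 1.87% upwards. For Hadh, the short-chain 3-hydroxyacyl-CoA dehydrogenase, the separation was narrow, with 349 CPM in the highest NAMPT LKO liver and 351 CPM in the lowest WT fasting liver. Eci1, an enoyl-CoA isomerase for chains with double bonds, was 208, 217 and 209.6 CPM in WT fasting livers and 187, 194, 178, 191 and 204 CPM in NAMPT LKO livers, a log2 fold change of -0.15 ± 0.09 (adjusted p = 0.84). Hadh and Eci1 are named here after their values were seen, as is Acadvl, the very long-chain acyl-CoA dehydrogenase, with -0.13 ± 0.11 (adjusted p = 0.85). NAMPT LKO mouse 5 was the lowest liver for Acadvl (151 CPM, the next 189 CPM), and without it the log2 fold change was -0.064 (adjusted p = 0.81).

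The third comparison set NAMPT LKO fasting livers against WT refed livers and shares the refed livers with the first. Here 4 of 33 members changed, where 11.2% of all genes tested did. Slc27a1, Crat and Cpt1a rose (3 members; 4.65% of all genes rose) and Acsl4 fell (1 member; 6.58% of all genes fell). The log2 fold changes, beside those of WT fasting against WT refed livers, were 0.67 ± 0.15 and 1.00 for Slc27a1, 0.81 ± 0.16 and 0.72 for Crat, 0.78 ± 0.18 and 0.67 for Cpt1a, and -0.91 ± 0.24 and -1.14 for Acsl4. Their adjusted p in NAMPT LKO fasting against WT refed livers, by edgeR's quasi-likelihood test, was 0.019, 0.0083, 0.020 and 0.037. In NAMPT LKO livers Acsl4 was 34.6, 40.3, 34.05, 33.01 and 68.1 CPM, so that mouse 5 was nearer to the WT refed livers (75.4 and 82.1 CPM) than to its own group. The call for Acsl4 held in 3 of the 10 fits that each left out 1 library, with log2 fold changes of -1.15 to -0.83. It was lost without either WT refed mouse, WT fasting mouse 2 or any 1 of NAMPT LKO mice 1 to 4, and in a fit of only these groups, and without mouse 5 its adjusted p was 0.00016. Without mouse 5, 8 members and 2835 of all genes were called, against 4 and 1510 with it, and the members added were Acad11, Etfdh, Acsm1 and Acsm5. Leaving out either WT refed mouse leaves 1 liver in that group. The median log2 fold change of the members was then 0.22 without mouse 1 and 0.087 without mouse 2, against 0.16 with all libraries. With voomWithQualityWeights 11 members were called, and 4281 of all 13444 genes.

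NAMPT LKO mouse 5 stood apart from its group, in the members as over all genes. Its median absolute deviation over the 33 members, from the median of the other 4 NAMPT LKO livers on the log2 scale, was 0.296, against 0.078 to 0.119 for each of the other 4. Over all 13444 genes tested it was 0.350 in mouse 5 and 0.124 to 0.158 in the other 4. It deviated by more than 0.5 in 10 of 33 members, where 33.7% of all these genes did. Acsl3, Acsl4, Acadm, Fabp1, Acadl, Decr1, Acsm1 and Etfdh were higher, by 0.55 to 1.16, and Acads and Slc27a4 were lower, by 0.896 and 0.851. Acadm, the medium-chain acyl-CoA dehydrogenase, was 1080.5 CPM in mouse 5 against 614 to 678 CPM in the other 4. Etfdh, the ubiquinone oxidoreductase that takes electrons from electron transfer flavoprotein, was 583 CPM against 367 to 409 CPM. Dehydrogenases of the same step for different chain lengths deviated in opposite directions in this library, with Acadm and Acadl above and Acads and Acadvl below the other 4.

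The deviations of mouse 5 ran with base composition (the plot of deviation against GC content). Member transcripts held 38.4% GC (Cd36) to 59.7% GC (Acads), with a median of 51.0%, and over the 33 members the deviation of mouse 5 and GC content had Pearson's r of -0.63 and Spearman's rho of -0.62. In the other 4 NAMPT LKO livers, whose deviations were smaller, r over the members ran from -0.44 to 0.55. The points of a liver share 1 library, and genes are not independent replicates. Over all genes with a GC value, rho was -0.55 in mouse 5 and from -0.05 to 0.27 in the other NAMPT LKO livers. Mouse 5 was also the library with 21.1% of counts from the mitochondrial genome. The part of GC content and of the mitochondrial share in the results was not tested. With the GC trend removed from every library, 0 members were called in NAMPT LKO against WT fasting livers, and Acads had a log2 fold change of -0.22 (adjusted p = 0.80). The 8 members that were higher in mouse 5 were chosen for their values in that mouse, so a fall without it followed from the choice. Without mouse 5, the log2 fold changes in NAMPT LKO against WT fasting livers of these 8 members moved down. They went from 0.19 to 0.0073 for Acadm, from 0.17 to 0.0026 for Acadl, from 0.16 to 0.0083 for Decr1, from 0.12 to -0.011 for Etfdh, from 0.45 to 0.17 for Acsl3, from 0.23 to -0.012 for Acsl4, from 0.073 to -0.10 for Fabp1 and from 0.062 to -0.067 for Acsm1.

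**Figure D4:**
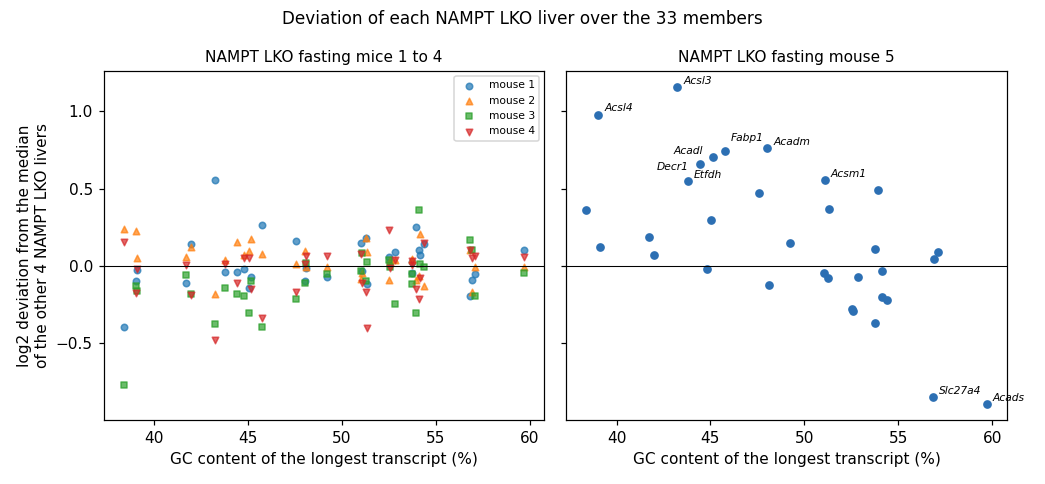
Log2 deviation of a NAMPT LKO fasting liver from the median of the other 4, for each of the 33 members, against the GC content of the member's longest transcript in percent; mice 1 to 4 are on the left and mouse 5, with members beyond 0.5 named, on the right. Mouse 5 runs from above 0 at low GC content to below 0 at high GC content (Pearson's r -0.63), with Acsl3 highest and Acads lowest.

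The rest of the pathway was followed through 61 further genes (regulators, carnitine supply, other transporters and synthetases, other mitochondrial acyl-CoA enzymes), of which 52 were tested. In WT fasting against WT refed livers 4 of 52 changed, where 7.04% of all genes did. Slc22a5, the carnitine transporter, rose by 1.02 ± 0.22 on the log2 scale, Eci2, an enoyl-CoA isomerase, by 0.62 ± 0.14 and Slc27a2, fatty acid transport protein 2, by 0.57 ± 0.15, and Fabp5, a fatty acid-binding protein, fell by 1.32 ± 0.33. In NAMPT LKO fasting against WT refed livers 7 of 52 changed, where 11.2% of all genes did. Crot, the carnitine octanoyltransferase, Ppara and its coactivator Ppargc1a rose (0.70, 0.53 and 1.76). Slc22a5, Eci2 and Slc27a2 rose here too (0.98, 0.51 and 0.64), and Fabp5 fell (-1.08). In NAMPT LKO against WT fasting livers 0 of 52 were called by edgeR's quasi-likelihood test, and 1 had an unadjusted p under 0.05.

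PPARα target genes outside mitochondrial β-oxidation were set beside the members. These 12 genes were listed with earlier results of these data known. In WT fasting against WT refed livers all 12 had a log2 fold change above 0, where 53.6% of all genes tested did. Their median was 0.68, against 0.16 for the members. Of the 12 targets, 4 passed the test and rose, where 2.68% of all genes rose. Pdk4, a kinase that restrains pyruvate oxidation, rose by 3.00 ± 0.51 and the fasting hormone Fgf21 by 2.92 ± 0.53. Angptl4, an inhibitor of lipoprotein lipase, rose by 2.38 ± 0.21 and Plin2, a lipid droplet protein, by 1.09 ± 0.18. In NAMPT LKO fasting against WT refed livers the same 4 rose with 3.24, 3.63, 2.34 and 0.93, together with Acot1, Ehhadh and Vnn1 (1.16, 0.76 and 1.26). There 4.65% of all genes rose. Between the genotypes in fasting edgeR's quasi-likelihood test called 0 of 12, where it called 0.00744% of all genes. At an unadjusted p under 0.05 there was 1 (Ehhadh, 0.48 ± 0.18, adjusted p = 0.80), where 6.03% of all genes reached that value. Log2 fold changes of the 12 ran from -0.16 to 0.71.

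Some members share sequence with other genes, and how far this affects their deposited counts was not tested. For Etfb, 67.3% of the 50-base windows of the longest transcript were also found, on either strand, in another gene's transcripts (Gm45233). The share was 35.2% for Acsm3 (with Eri2), 24.0% for Acadvl (with Dvl2), and 20.7% and 18.6% for Acad12 and Acad10 (with each other). In the other 28 members the share was at most 5.53%. Exons of Acadvl and Dvl2 overlap on opposite strands over 1151 of 2686 bases and those of Acsm3 and Eri2 over 1962 of 4936 bases, and how the counting treated strand is not given in the sources used here.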

How the data were processed

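Liver RNA was poly-A selected, made into libraries and read as short single-end reads. The deposited tables, 1 per liver, give for each Ensembl gene on GRCm38 the count of reads that the authors obtained, and per the file headers also CPM and RPKM values, which were read and not tested. The submitters' processing notes name bcl2fastq, STAR 2.5.1a and featureCounts 1.4.6-p5, and the study's methods name others for some steps. Symbols were taken from the deposited identifiers and an annotation table, and 40340 of 41388 genes had one. Groups came from the sample labels.

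The 33 members, the 61 further pathway genes, the 12 PPARα targets, the marker lists and the tests were chosen with earlier results of these data known. Genes over 1 CPM in at least 1 library, without rRNA genes (4 left out), were tested with edgeR 4.0.16 in R 4.3.3: TMM normalisation, all 10 libraries in 1 quasi-likelihood fit with a mean per group, Benjamini-Hochberg adjustment over 13444 genes and a threshold of 0.05. CPM in the text are on TMM-scaled library sizes, and RPKM divide these by exonic length. Fold changes are log2 with standard errors. The fit was also run on simulated counts drawn from its own means and spread. These counts held no GC trend and no outlying library, so they cannot speak to such effects. Depth was 30603080 to 43434139 counts per liver, with at least 158 counts for any member, and the 2 WT refed livers limit the precision of comparisons with that group.

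Values in every liver are given for members called in any comparison, for the 3 with the lowest p between the genotypes and for the 3 of highest median RPKM. Other members are given by range, and any further one named in full was chosen after its values were seen. Alternatives were DESeq2 1.42.0, limma 3.58.1 (voomWithQualityWeights), the edgeR exact test, other scalings, filters and thresholds, removal of a loess trend (span 0.5) on GC content, fits without each library and a replicate block. GC content and shared 50-base windows came from the longest GENCODE transcript of each gene, with GC values for 99.44% of genes tested. Upstream sequences are from RefSeq (GRCm38.p6).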

Additional observations from a re-analysis of the deposited data

Results flagged for a closer look

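In the 5 NAMPT LKO fasting livers, 41 values (the 33 members, the 7 sums by role and the sum over all members) were checked for a liver whose gap to its nearest neighbour takes up most of the range of its group, with Dixon's limit of 0.71 for 5 livers. The limit was passed by 10 values, where chance alone gives about 1 in 20, or 2.05 of 41. The standing-apart liver was NAMPT LKO mouse 5 in all 10. The values are not independent, since they come from 1 library.

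Mouse 5 was the highest for Acsl4 (68.1 CPM, nearest 40.3, ratio of gap to range 0.794), Acsm1 (225, nearest 162, ratio 0.8004), Acadl (508, nearest 352, ratio 0.747), Acadm (1080.5, nearest 678, ratio 0.862), Decr1 (363, nearest 255, ratio 0.725) and Etfdh (583, nearest 409, ratio 0.806). It was the lowest for Cpt2 (172, nearest 209, ratio 0.867), Acadvl (151, nearest 189, ratio 0.805) and Acads (73.4, nearest 132, ratio 0.838). The sum over the acyl-CoA dehydrogenases was also highest there (2192 CPM, nearest 1753, ratio 0.730), and it holds both Acadm and Acads, which deviated in opposite directions. The cause was not tested.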

How the results depend on the processing

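Counts of genes called are given in the order members, further pathway genes and PPARα targets, and were 3, 4 and 4 in WT fasting against WT refed livers, 0, 0 and 0 in NAMPT LKO against WT fasting livers, and 4, 7 and 7 in NAMPT LKO fasting against WT refed livers. They changed by over 1.5 times as follows, and the cause was not tested. In WT fasting against WT refed livers, DESeq2 called 5 members and 7 further genes, voomWithQualityWeights 11, 14 and 9, a fit of only these groups 5 members, library size alone 2 further genes, an unadjusted p under 0.05 6, 11 and 8, and an added limit of 1 on the absolute log2 fold change 2 further genes. In NAMPT LKO against WT fasting livers, an unadjusted p under 0.05 gave 1, 1 and 1, and every other fit gave 0. In NAMPT LKO fasting against WT refed livers, voomWithQualityWeights called 11, 14 and 11, library size alone 4 PPARα targets, a fit of only these groups 4 further genes, an unadjusted p 8 members and 13 further genes, and the limit of 1 on the fold change 0 members and 2 further genes. Leaving out each library in turn gave 0 to 6 members, 0 to 8 further genes and 1 to 6 PPARα targets in WT fasting against WT refed livers, and 0 to 8, 0 to 12 and 2 to 9 in NAMPT LKO fasting against WT refed livers. The lowest came without WT refed mouse 2 (also without mouse 1 for the further genes, and for the PPARα targets in NAMPT LKO fasting against WT refed livers), and 0 members were called between the genotypes in each. The number of members above 0 in WT fasting against WT refed livers was 28 to 30 of 33 in the fits with all libraries and 26 to 30 without 1 library.

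Slc27a1 and Acsl4 were called in WT fasting against WT refed livers in every fit across all 10 libraries and in that of the 2 groups, Crat in all but library size alone, and Cpt1a with DESeq2, voomWithQualityWeights and the fit of the 2 groups.

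In the fits across all 10 libraries and in those of only 2 groups, signs changed only for values near 0 that were not called. With 1 library left out, signs also changed for larger values, as the ranges below show. In NAMPT LKO against WT fasting livers the median of the members was 0.0028 with the GC trend removed and 0.0025 in the fit of only these groups, and -0.031 to 0.030 with 1 library left out. In the same comparison, log2 fold changes of the other sign were 0.045 (Acad12) and 0.0099 (Ech1) with the GC trend removed, -0.0065 (Hadha) with library size alone, 0.0025 (Acsm5) in the fit of only these groups, and -0.068 (Fabp1), -0.020 (Acsl1), -0.015 (Acsm1), 0.029 (Acsm5) and 0.012 (Acad12) with voomWithQualityWeights. In NAMPT LKO fasting against WT refed livers they were 0.012 (Ech1) and 0.057 (Etfb) with the GC trend removed, -0.0057 (Cpt2), -0.025 (Acad10), -0.060 (Hadh), -0.075 (Acaa2) and -0.012 (Eci1) with library size alone, -0.011 (Acaa2) without the filter, and 0.051 (Slc27a4) and 0.063 (Acads) with voomWithQualityWeights. In WT fasting against WT refed livers they were -0.034 (Ech1) with library size alone and 0.00051 (Acsl3) with voomWithQualityWeights.

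With 1 library left out, ranges that crossed 0 were, in WT fasting against WT refed livers, -0.0034 to 0.44 (Fabp1), -0.016 to 0.30 (Acsl1), -0.35 to 0.22 (Acsl3), -8.8e-06 to 0.29 (Acad12) and -0.062 to 0.11 (Ech1). In NAMPT LKO against WT fasting livers they were -0.10 to 0.16 (Fabp1), -0.096 to 0.23 (Acsl1), -0.012 to 0.31 (Acsl4), -0.067 to 0.14 (Acsm1), -0.097 to 0.022 (Acsm3), -0.073 to 0.11 (Acsm5), -0.031 to 0.17 (Crat), -0.048 to 0.0081 (Acad11), -0.12 to 0.053 (Acad12), -0.013 to 0.051 (Hadha), -0.12 to 0.0093 (Etfa) and -0.011 to 0.17 (Etfdh). In NAMPT LKO fasting against WT refed livers they were -0.16 to 0.070 (Slc27a4), -0.10 to 0.098 (Acads), -0.051 to 0.16 (Acad10), -0.029 to 0.26 (Acad12), -0.041 to 0.083 (Hadh), -0.011 to 0.052 (Acaa2), -0.13 to 0.045 (Ech1) and -0.043 to 0.0055 (Etfb).

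Replicate numbers 1 to 3 are shared by WT fasting and NAMPT LKO livers. Deviations from the group means correlated by 0.10, 0.078 and 0.097 within numbers, and WT fasting mouse 1 correlated more with NAMPT LKO mouse 4 (0.13), so the numbers were not taken as pairs. With a replicate block on these 6 libraries 0 members were called, as without it, and the block gave -0.063 (Fabp1), -0.038 (Acsm1), -0.00084 (Acadm), 0.064 (Acad12) and -0.025 (Etfdh). The same libraries without the block gave -0.050 (Fabp1), -0.043 (Acsm1), -0.00046 (Acadm), 0.0021 (Acad11), 0.069 (Acad12) and -0.024 (Etfdh).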
